A study of Homo sapiens with 12 samples.

Results

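The exons described here are 249 cassette exons that were included less in set 2 than in set 1 of the RNA-seq table, 249 of 63506 exons with enough counts and of 75852 exons in the table. They were selected on that difference. An exon qualified when each of the 6 libraries held at least 20 inclusion and skipping counts, when mean inclusion in set 2 was at least 20 percentage points below that in set 1, and when all 3 set 2 values lay below all 3 set 1 values. Where several events of an exon qualified, the one with the most counts was kept. They are called lost exons below, as a name for this rule and not as a statement about either cell line, and their difference between the sets is a description with no test. The rule took 0.392% of the exons with enough counts, and its mirror image, higher in set 2, took 154 exons (0.242%).

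A cassette exon is either joined to both neighbouring exons in the mature mRNA or skipped, and the inclusion level is the share of transcripts that hold it. RNA-binding proteins bound in and around the exon set that choice. The epithelial proteins ESRP1 and ESRP2, together with RBFOX2, QKI, MBNL and PTBP family proteins, are known to switch a programme of exons when epithelial cells take on mesenchymal character, in genes of the actin cytoskeleton, cell adhesion, vesicle traffic and signalling. An exon whose length is a multiple of 3 can be added to or left out of a protein without a shift of the reading frame.

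The lines profiled were PC3E, of epithelial character, and GS689.Li (GS689 below), of mesenchymal character, both human and descended from PC3 prostate cancer cells. The labels give both lines as wild type, and both were kept in DMEM/F12 medium with serum, non-essential amino acids and the selection drug G418, plated in dishes and harvested the next day without a treatment. Each line had 3 RNA-seq libraries and 3 libraries of RASL-seq, a targeted assay in which probe pairs are ligated across chosen splice junctions and counted. The header of the RNA-seq table numbers its 2 sets and their libraries and names no line, so set 1 and set 2 are not assigned to a line here, whatever their values, and each library's value is given. Whether replicates were separate cultures is not stated in the labels, and p-values then reflect only library-to-library spread, possibly technical. Table totals ranged from 93842790 to 120853566 counts per RNA-seq library and from 615758 to 954120 per RASL-seq library, and a read can count in several events. Of the markers listed, 8 of 12 epithelial and 3 of 7 mesenchymal genes reached 20 counts in each RNA-seq library. Of 5 prostate luminal markers TMPRSS2 alone did. Of the others ENO2 (neuroendocrine) reached it and the measured haematopoietic (PTPRC) and hepatocyte (APOA1) markers did not.

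The shortest lost exons show what the rule found at the scale of a few codons. Exons of 27 nt or shorter made up 4.82% of lost exons, 7.79% of those higher in set 2 and 0.962% of all exons with enough counts. Coding status and frame were not counted in the other exons this short. All 12 lost exons of 27 nt or shorter are coding, and 12 of the 12 have a length that is a multiple of 3. Their sequences are printed below with those of the UTRN and SLK exons, whose RASL-seq calls held under every alternative tried, and with a pair of UAP1 versions in which the capitals mark the bases that only the longer version holds. Sequences are from the GENCODE release 29 transcripts, 5′ to 3′ on the transcript strand.
INCENP 12 nt: tgcagcttcgtc
MYO18A 12 nt: aagctgctgaag
FNBP1 15 nt: ctttctctcaagctg
DST 18 nt: ttcttcctgggaaatcag
MACF1 18 nt: ttcttcctcggcaatcag
TRAPPC13 18 nt: agtgacctcagttctgtg
AFDN 21 nt: gaagtagaccaggttgaccag
USO1 21 nt: ggtgataagatcgacagacgg
PICALM 24 nt: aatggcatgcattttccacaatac
UGGT1 24 nt: gaatgtcctccaaggaaatctatg
MYO6 27 nt: attttgcaccatttttgaacaattcac
PTPRF 27 nt: tggcggccagaggagtccgaggactat
UTRN 39 nt: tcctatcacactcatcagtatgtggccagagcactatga
SLK 93 nt: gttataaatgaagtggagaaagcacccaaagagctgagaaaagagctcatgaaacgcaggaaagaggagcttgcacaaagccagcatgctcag
UAP1 48 nt: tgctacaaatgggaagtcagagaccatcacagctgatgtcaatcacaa
UAP1 51 nt: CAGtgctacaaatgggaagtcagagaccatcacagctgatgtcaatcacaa

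The files place these exons on hg19, counted from 1, at chr4:76716489-76716509, + strand (USO1), chr11:85689113-85689136, - strand (PICALM), chr6:76621389-76621415, + strand (MYO6), chr1:44067742-44067768, + strand (PTPRF), chr6:145148484-145148522, + strand (UTRN) and chr10:105770574-105770666, + strand (SLK). The 18 nt exons of DST (chr6:56333780-56333797, - strand) and MACF1 (chr1:39930767-39930784, + strand), genes for the paralogous giant linkers of actin and microtubules, share 16 of 18 bases. Counted from the 5′ end with the DST base before the position, they differ by G9C and A12C. Inclusion of the DST exon was 98.6, 100 and 98.3% in set 1 and 62.1, 57.7 and 63.6% in set 2. That of the MACF1 exon was 54.2, 69.7 and 58.6% and 23.1, 30.7 and 25.1%. The DST exon was thus near full inclusion in set 1 and the MACF1 exon was not, while the differences were close (-37.9 and -34.5 percentage points).

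Over the 249 exons the median of the set 1 means was 70.5% and that of the set 2 means 38.3%. The median difference was -27.7 percentage points, with a range from -97.3 to -20.0. Of the 249, 7 went from at least 80% to at most 20%, 81 started at 80% or more and stayed above 20%, 56 started lower and ended at 20% or less, and 105 lay between those bounds in both sets. In set 2 inclusion was at most 5% for 24 exons and at least 50% for 81. A difference of 30 points or more was seen in 103 exons, of 50 or more in 32 and of 70 or more in 6.

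**Figure D1:**
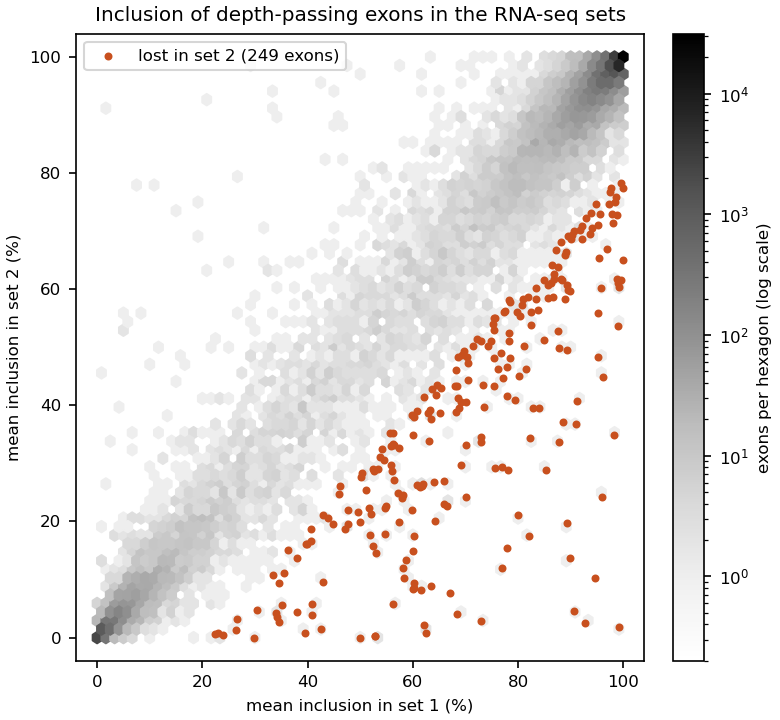
Mean inclusion in set 1 (horizontal, %) and set 2 (vertical, %) of the exons with enough counts, grey hexagons shaded by the number of exons on a log scale, with the 249 lost exons as orange points. The points lie at least 20 points below the diagonal because the rule put them there, and they spread over the whole range of set 1 levels above 20%.

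The libraries of a set gave similar levels over the lost exons as a group. Their median inclusion was 72.4, 73.5 and 73.3% in the set 1 libraries and 35.3, 38.6 and 37.6% in those of set 2. The gap between the lowest set 1 value and the highest set 2 value was 10 points or more in 201 exons and under 5 points in 16. Set 1 library 2 was the one farthest from the others of its set in 114 of the 249 exons (45.8%), against 43.0% of 10759 alternative exons, and its part in the levels was not tested. A member had 20 to 10020 counts in a library, with a median of 158.5, and 87 members had under 50 in some library. The 95% Wilson interval of a single value, which covers counting error only, had a median width of 13.7 points and at most 43.7. In 144 of the 249 exons the 3 set 1 intervals lay above the 3 set 2 intervals. The rule had already put the 3 set 2 values below the 3 set 1 values, so this count is a description with no test.

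**Figure D2:**
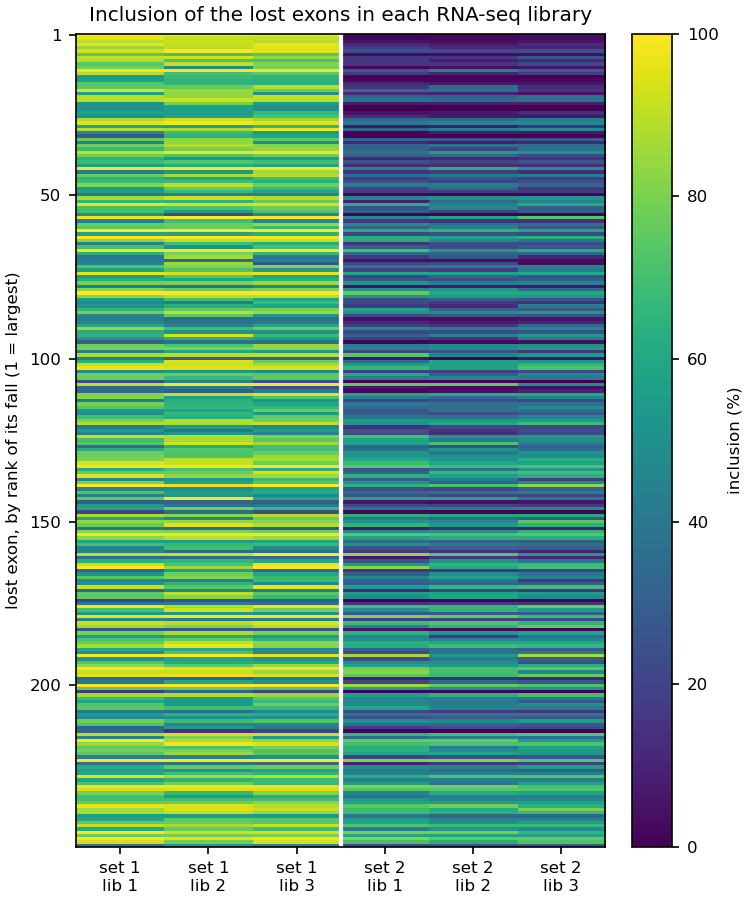
Inclusion (colour, %) of the 249 lost exons in each of the 6 RNA-seq libraries, 1 row per exon ordered by the size of its difference. Set 1 columns are lighter than set 2 columns in every row, as the rule requires, and the medians are 72.4 to 73.5% on the left and 35.3 to 38.6% on the right.

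The largest difference was in a 57 nt exon of SLC37A2, which encodes a member of the sugar-phosphate exchanger family (chr11:124956100-124956156, + strand). It was included at 100, 100 and 97.6% in set 1 and 0, 1.76 and 3.94% in set 2, on 31 to 70 counts per library. The exon thus passed from nearly always to nearly never included. A 33 nt coding exon of CA12, a membrane-bound carbonic anhydrase, stood at 95.9, 91.3 and 90.8% and 1.75, 2.32 and 3.59% (chr15:63620297-63620329, - strand). The 21 nt exon of USO1, a vesicle tether of the Golgi, stood at 89.8, 92.7 and 89.1% and 4.64, 3.86 and 5.38%. The 24 nt exon of PICALM, a clathrin assembly protein, stood at 93.5, 99.1 and 95.2% and 24.3, 23.4 and 24.98%. Its set 2 values lay within 2 points of each other, at a level of partial inclusion.

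Some of the largest differences were in genes that shape the actin cytoskeleton. The 63 nt exon of ENAH, an actin filament elongation factor (chr1:225692693-225692755, - strand), had inclusion of 57.4, 64.97 and 64.01% in set 1 and 2.21, 1.56 and 2.88% in set 2. PDLIM7, an actin-associated protein with PDZ and LIM domains, had 2 overlapping versions of an exon, of 189 nt and 170 nt, at 88.2, 71.4 and 71.4% against 16.8, 7.98 and 11.3% and at 88.9, 70.4 and 74.4% against 17.99, 10.7 and 17.5%. Their set 1 libraries held as few as 23 counts. The 93 nt exon of SLK, a STE20-like kinase that acts on the cytoskeleton, was included at 55.2, 67.3 and 64.99% in set 1 and 0.859, 1.39 and 0.318% in set 2.

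Among the remaining exons with the 15 largest differences, the 78 nt exon of RALGPS2, an exchange factor for Ral GTPases (chr1:178861365-178861442, + strand), was at 73.9, 91.3 and 81.1% and 15.1, 15.8 and 21.6%. It kept a minor included form in set 2. A 78 nt exon of KIAA1217 (chr10:24831622-24831699, + strand) was at 83.6, 90.1 and 95.7% and 18.6, 11.9 and 10.7%. The 90 nt untranslated exon of NDUFB2, a subunit of respiratory complex I, was at 77.99, 47.8 and 79.6% and 2.17, 4.24 and 5.58%. In NDUFB2, set 1 library 2 stood far below the other libraries of its set, and the set 2 libraries held 25 to 39 counts.

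**Figure D3:**
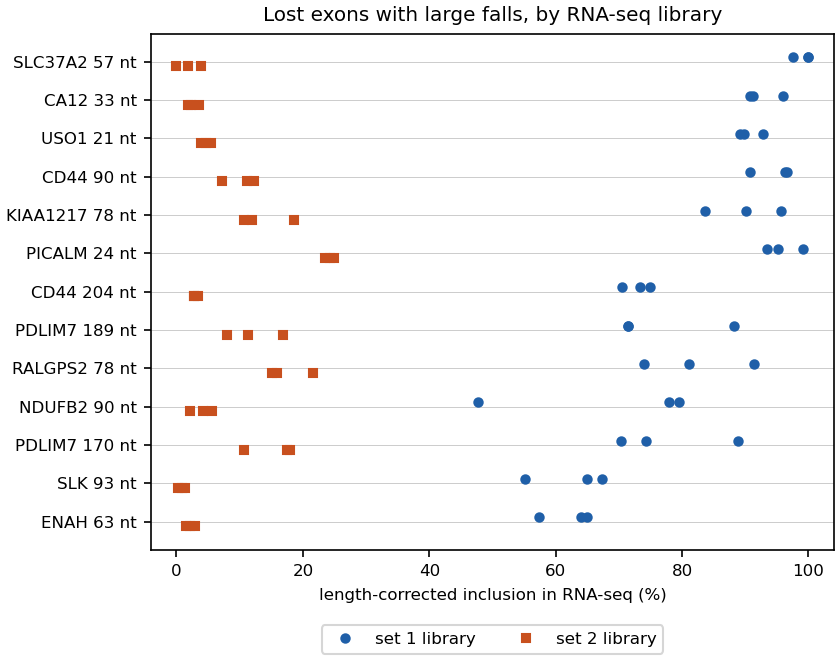
Length-corrected inclusion (horizontal, %) of 13 of the 15 lost exons with the largest differences, blue circles for the 3 set 1 libraries and orange squares for the 3 set 2 libraries. NDUFB2 has the widest spread within set 1, from 47.8 to 79.6%, and SLC37A2 the widest distance between the sets.

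CD44, the receptor for hyaluronan on the cell surface, held more lost exons than any other gene. Its central exons, known as the variant exons, are joined in many combinations in epithelial cells and skipped together in the standard form. Of its exons 7 were lost, and a further 105 nt version of the 102 nt exon qualified without a match to a single gene. The junction that skips the whole block (upstream exon end 35211612, downstream exon start 35236399, chromosome 11) had 398, 465 and 436 counts in the set 1 libraries and 3681, 3194 and 3637 in those of set 2. That junction is the skipping form of 4 of the 7 events, whose differences therefore are not independent. Against it, the 204 nt exon nearest the 3′ end was included at 74.9, 70.5 and 73.3% in set 1 and 2.70, 2.80 and 3.34% in set 2, and the 102 nt exon at 50.9, 57.2 and 50.5% and 0.203, 0.125 and 0.302%. The 126 nt exon was at 49.6, 23.3 and 45.6% and 0.808, 0.622 and 0.723%, and the 129 nt exon at 32.3, 14.1 and 20.5% and 0.728, 0.591 and 0.424%. Set 1 library 2 was the lowest of its set for the 126, 129 and 204 nt exons and the highest for the 102 nt exon, so that the mixture of variant exons differed within set 1.

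The other 3 CD44 events ask which exon precedes a later variant exon, and in set 2 they rest on few counts. The 90 nt exon (chr11:35231512-35231601, + strand) was at 96.3, 90.8 and 96.6% in set 1, on 1877 to 2080 counts, and 11.2, 7.22 and 12.2% in set 2, on 89 to 106. The 117 and 120 nt versions of 1 exon were at 57.6, 56.4 and 66.6% and 5.56, 6.67 and 13.2%, and at 57.6, 56.5 and 66.6% and 6.85, 6.67 and 14.8%, with 30 to 39 counts in each set 2 library. The direction of a CD44 event depended on its flanks. Measured between the upstream constant exon and the 102 nt exon, the 126 nt exon was at 34.1, 13.4 and 30.8% in set 1 and 55.9, 64.4 and 41.3% in set 2, and the 129 nt exon at 22.1, 7.51 and 13.6% and 53.1, 65.2 and 37.1%. These events met the mirrored rule. The same held for the 122 and 118 nt versions of an untranslated exon of ADGRG1, an adhesion receptor. The 122 nt version was at 97.05, 94.1 and 94.7% in set 1 and 62.3, 43.5 and 61.7% in set 2 behind 1 upstream exon, and at 64.8, 68.4 and 55.2% and 100, 100 and 100% behind another. These 4 were the only lost exons that also met the mirrored rule in another event.

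**Figure D4:**
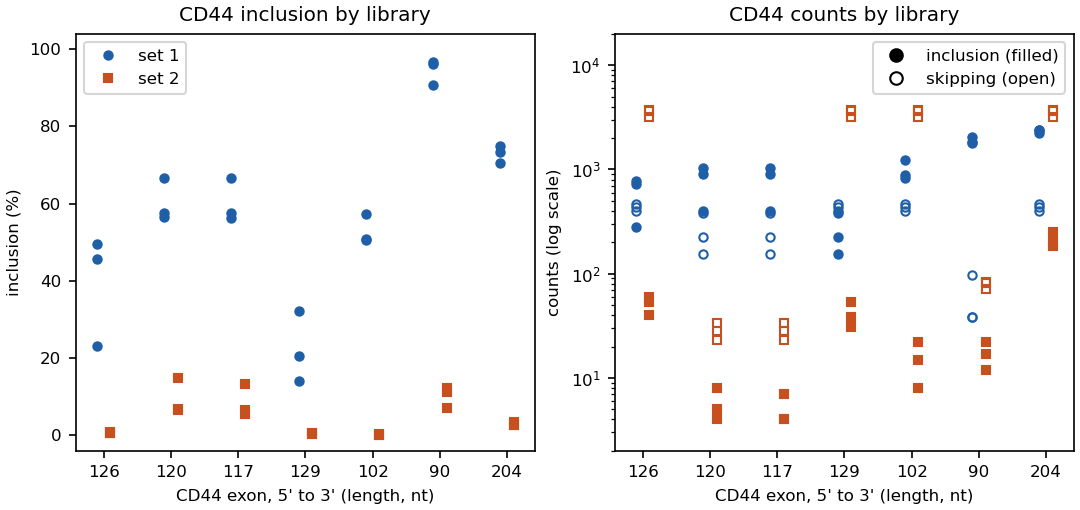
The 7 lost CD44 exons from 5′ to 3′, with inclusion (left, %) and inclusion and skipping counts on a log scale (right, filled and open symbols) in each set 1 (blue) and set 2 (orange) library. The skipping counts of the 126, 129, 102 and 204 nt exons coincide because the same junction skips them, at 398 to 465 in set 1 and 3194 to 3681 in set 2.

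A list of genes with exons known to respond to ESRP proteins or to the epithelial-mesenchymal transition held many of the lost exons. Of its 60 genes measured, 22 (36.7%) held a lost exon, 33 exons in all, against 194 of 10316 named genes (1.88%). A gained exon was held by 12, and CD44 and EXOC7 held both kinds. The gained exons of CD44 were lost exons measured between other flanks. The list was drawn up with results of these data known, so these counts are a description. Besides the exons above, the list held an untranslated 84 nt exon of INF2, a formin, at 73.7, 65.1 and 62.2% and 10.7, 6.13 and 6.18%. It also held the 39 nt exon of UTRN, the dystrophin-like linker utrophin, at 87.6, 92.3 and 85.9% and 33.3, 35.2 and 42.9%, and the 130 nt exon of ITGA6, integrin alpha 6, at 95.3, 98.1 and 95.1% and 40.7, 46.3 and 47.4%. In ITGA6 the exon went from nearly constant to near an even split of both forms. The 129 nt exon of TSC2, the tuberin subunit of the complex that restrains mTORC1, was at 68.3, 72.9 and 69.3% and 25.4, 20.4 and 26.9%. The 96 nt exon of ARFIP1, a binding partner of Arf GTPases, was at 56.8, 62.003 and 57.5% and 12.8, 13.8 and 13.3%. A 73 nt exon of TCF7L2, a transcription factor of the Wnt pathway, was at 94.2, 84.7 and 77.1% and 33.4, 36.9 and 16.3%, on 24 to 63 counts.

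The actin and myosin list had lost exons in 13 of 58 measured genes (22.4%) and gained ones in 6. Besides those above it held the 153 nt exon of FMNL3, a formin, at 67.6, 68.8 and 63.4% in set 1 and 23.97, 19.5 and 24.7% in set 2. The 27 nt exon of MYO6, the myosin that moves towards the minus end of actin filaments, was at 23.1, 42.9 and 23.5% and at 0, 0 and 0%, with 119 to 192 counts in the set 2 libraries. Of the vesicle traffic genes 9 of 61 (14.8%) held a lost exon and 10 a gained one. The 42 nt exon of ARFGAP2, an Arf GTPase-activating protein of COPI transport, was at 74.5, 77.2 and 66.9% and 31.9, 45.1 and 26.6%. Over all 10316 named genes, 194 held a lost exon and 129 a gained one. Of the vesicle traffic genes, EXOC7, KLC1 and VPS29 held both kinds.

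Among cell junction and adhesion genes 5 of 39 (12.8%) held lost exons, 11 exons in all of which CD44 gave 7. Gained ones were held by 6 of the genes, CD44 among them with lost exons measured between other flanks. The 21 nt exon of AFDN, the nectin-binding protein afadin, was at 81.5, 89.9 and 77.1% and 42.7, 42.5 and 33.4%. The 27 nt exon of PTPRF, a receptor tyrosine phosphatase, was at 42.9, 34.7 and 44.9% and 4.60, 3.60 and 3.63%. Kinases, small GTPase regulators and signalling genes had lost exons in 9 of 37 (24.3%) and gained ones in 5. Overlapping versions of an exon of NF2, the tumour suppressor merlin, were at 89.9, 82.1 and 91.2% and 31.6, 31.1 and 38.2% for 60 nt and at 96.4, 93.996 and 97.1% and 60.9, 57.95 and 61.9% for 45 nt. The 36 nt exon of INSR, the insulin receptor, was at 44.1, 83.7 and 47.3% and 11.2, 8.26 and 11.5%. In INSR, set 1 library 2 stood well above the other libraries of its set.

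Of 46 splicing regulators measured, 3 held a lost exon (6.52%) and 3 a gained one. The 117 nt exon of QKI, a KH-domain splicing factor, was at 99.6, 99.6 and 99.6% in set 1 and 60.5, 65.6 and 58.5% in set 2 (chr6:163899812-163899928, + strand). The 114 nt exon of RALY, an hnRNP, was at 100, 96.7 and 100% and 64.1, 71.4 and 82.6%. The 95 nt exon of MBNL2, a muscleblind protein, was at 95.1, 86.3 and 89.4% and 62.6, 72.4 and 72.9%. In each of these 3 the exon remained in most transcripts of set 2.

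Of the 249 exons, 240 matched 1 gene, in 194 genes. Of these genes 157 had 1 lost exon, 32 had 2, CNTNAP3, DMPK, PKD1 and TMPO had 3, and CD44 had 7. PKD1 and CNTNAP3 have near-identical copies in the genome, so reads can be split between copies and their values are uncertain. In 26 positions a pair of lost exons overlapped with 1 end in common, which leaves 223 separate positions. Of the 26 pairs, 16 differed by a multiple of 3 bases and 5 by 3 bases alone. In UAP1, an enzyme of UDP-GlcNAc synthesis, the 48 nt version was at 77.96, 87.7 and 81.1% and 31.2, 36.9 and 35.1% and the 51 nt version at 86.7, 92.6 and 88.4% and 45.7, 50.8 and 52.2%. The 3 bases in capitals in the sequence above thus separate 2 versions that were both lower in set 2. In all, 69 lost exons shared a skipping junction with another, so the 249 are not independent.

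Frame and coding status were not used by the rule. Exon length entered it through the length correction of inclusion, without which 207 exons were lost, and its part in the lengths below was not tested. Median length was 98 nt, against 110 nt for gained exons, 112 nt for 2562 alternative exons held constant between the sets and 118 nt for all exons with enough counts. Exons of 50 nt or shorter made up 16.5% of lost exons, 20.8% of gained, 10.4% of constant and 5.76% of all exons. A length that is a multiple of 3 was found in 59.4, 60.4, 47.0 and 40.1% in the same order. Of the 240 classed lost exons 159 were coding (66.3%), against 67.1% of gained, 54.7% of constant and 78.3% of all classed exons. A further 21 lost exons were partly coding and 28 untranslated, and 32 lay in no protein-coding transcript. Of the coding lost exons, 111 (69.8%) kept the frame, against 72.5% of gained, 59.1% of constant and 42.5% of all coding exons. Median GC content was 53.0, 54.1, 50 and 49.4%, in the same order. Upstream introns had medians of 2143, 1844, 2286 and 2050 nt, and downstream introns of 2186, 2002, 2364 and 1912 nt. The depth differed too, with a median total of 1006 counts for lost, 1149 for gained, 1324 for constant and 2649 for all exons, and its part in these shares was not tested.

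The level of the genes that hold lost exons was compared with that of all genes. The total was taken as inclusion counts of a gene's other exons, scaled to the same sum in each library (CPM), for 165 genes with 3 or more of them. Its median log2 ratio of set 2 to set 1 was 0.16, against 0.12 over 7605 genes, and 83.6% of the 165 lay within 2-fold, against 87.7%. In bulk RNA, fewer cells with an included form and a lower inclusion in each cell cannot be told apart. USO1 had totals of 42.4, 41.7 and 39.01 CPM in set 1 and 41.0, 42.7 and 37.4 in set 2. CD44 totals were 420, 351 and 376 in set 1 and 641, 553 and 635 in set 2. The totals were at least 2-fold lower in 10 of the 165 genes, against 322 of all 7605 genes. VEGFA was at 23.0, 46.9 and 34.4 against 6.53, 8.13 and 8.32 CPM. Totals at least 2-fold higher were found in 17 of the 165 genes, against 613 of the 7605. CD99L2 was at 9.86, 12.5 and 11.2 against 86.3, 99.03 and 77.2 CPM. VEGFA and CD99L2 were chosen after their values were seen.

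In 13 genes a lost and a gained exon occurred together. In CD44 and ADGRG1, among the 13, the gained exons were lost exons measured between other flanks. In EXOC7, an exocyst subunit, overlapping 153 and 69 nt exons were at 47.5, 40.7 and 67.4% and 23.02, 15.7 and 14.1%, and at 58.6, 44.3 and 77.1% and 41.1, 34.2 and 29.4%. Another EXOC7 exon, of 93 nt, was at 39.6, 29.1 and 50.6% in set 1 and 96.9, 91.7 and 85.5% in set 2. In VPS29, a retromer subunit, a 40 nt untranslated exon was at 44.4, 49.3 and 59.7% and 23.1, 21.4 and 31.4%, and a gained 12 nt exon at 21.3, 13.3 and 23.1% and 76.0, 64.2 and 69.99%. In KLC1, a kinesin light chain, a 131 nt exon was at 57.8, 55.7 and 58.6% and 36.04, 30.6 and 31.1%, and a gained 51 nt exon at 18.9, 23.6 and 26.4% and 42.1, 46.95 and 47.2%. In KLC1, and also in VPS29, the lost and the gained exon given here share a flanking splice site.

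RASL-seq names the line of each library and was not used by the rule, so it allows a test between PC3E and GS689. It asked whether the exons found from the RNA-seq sets also differed between the named lines. Of the 249 exons 42 were in that table, which covers the plus strand only, 32 by the same event and 10 by the same exon with other flanks, and 85 lost exons of the plus strand were not. Of the 42, 31 had counts enough for the test. In GS689 20 of the 31 were included less (64.5%) and 11 were not called. In the other direction 0 were called. A call higher needs a higher mean in GS689, which none of the 31 had, so no p threshold or model could give one on these libraries. Over all 1124 events tested, 3.65% were called lower and 2.22% higher. A call needed a difference of 5 percentage points and a Benjamini-Hochberg adjusted p under 0.05 over all events, from a quasi-binomial model whose dispersions limma moderated. The mean was lower in GS689 for 31 of the 31, against 53.1% of all tested events. All GS689 libraries lay below all PC3E libraries in 26 of the 31, against 13.9% of all tested events. The median change of the 31 was -16.3 points, against -0.098 over all tested events.

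The number called depended on the test. It was 12 with limma on the log2 ratio with a pseudocount of 0.5, 4 with no filter on low counts, and 13 without GS689 replicate 1. The exons of SLK, USO1, UTRN and ITGA6 kept the call in all 13 alternatives. Of the gained exons 16 were tested, with 6 called higher, 1 lower and a median change of 11.7 points. Of the constant exons 256 were tested, with 0 called higher, 1 lower and a median of -0.293. The line of each RNA-seq set was not taken from these values.

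The exons of SLK and USO1 were nearly absent from GS689 mRNA. The SLK exon was at 78.3, 83.6 and 82.3% in PC3E and 3.19, 3.47 and 2.92% in GS689, and the difference of -78.2 points had an adjusted p of 2.35e-11 (limma-moderated model). The USO1 exon was at 78.6, 81.1 and 78.1% and 3.68, 1.65 and 1.72%, with a difference of -76.9 points and an adjusted p of 3.61e-11. No library of one line overlapped the other in either exon. UTRN and ITGA6 were lower in GS689 but kept a large included form. The UTRN exon was at 82.9, 88.8 and 87.3% in PC3E and 37.8, 37.2 and 42.03% in GS689 (difference -47.3, adjusted p 2.09e-08). The ITGA6 exon was at 97.7, 99.1 and 96.8% and 53.1, 50.6 and 55.4% (difference -44.9, adjusted p 8.75e-09).

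Other coding exons were lower in GS689 by smaller amounts. The MYO6 exon was at 33.2, 50.7 and 33.7% in PC3E and 0, 0 and 2.68% in GS689 (difference -38.3, adjusted p 0.00158), and the PTPRF exon at 40.4, 30.6 and 42.9% and 6.98, 12.2 and 3.92% (difference -30.3, adjusted p 0.00212). Both were included in at most 50.7% of the counts in PC3E. The 48 nt exon of YAP1, the Hippo pathway coactivator, was at 56, 55.7 and 58.5% and 28.9, 32.4 and 29.3% (adjusted p 0.00709). The 111 nt exon of MACF1 was at 24.2, 23.2 and 26.3% and 7.80, 11.4 and 8.24% (adjusted p 0.000592). With no filter on low counts these 4 were not called, and their highest adjusted p over the alternatives were 0.153, 0.151, 0.236 and 0.11 (limma-moderated model or limma). The YAP1 call was also lost without GS689 replicate 1 and with limma at a pseudocount of 0.5 (adjusted p 0.0644). The 60 nt exon of TERF1, a telomere-binding shelterin subunit, was at 55.3, 53.1 and 50.2% and 28.003, 31.3 and 32.2% (adjusted p 7.76e-06), on 789 to 1594 counts per library, and missed the threshold only with no filter, at 0.0708.

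In TCF7L2 the 69 nt exon was at 52.2, 40.7 and 47.3% in PC3E and 17.1, 20 and 18% in GS689 (adjusted p 0.00149), and the 73 nt exon at 31.7, 39.8 and 29.01% and 18.2, 10.4 and 23.9% (adjusted p 0.0385). The call of the 73 nt exon was lost when any single library was left out. The RALGPS2 exon was at 93.9, 99.01 and 100% and 58.5, 76.5 and 80% (adjusted p 0.00435), the TSC2 exon at 95.2, 89.04 and 95.5% and 80.6, 57.4 and 69.8% (adjusted p 0.00789). In both, the GS689 libraries spread widely. The RALGPS2 call was lost without GS689 replicate 1, and the TSC2 call without PC3E replicate 3 or GS689 replicate 2. Both were also lost with limma at a pseudocount of 0.5 (adjusted p 0.0744 and 0.0791). With no filter on low counts the calls of TCF7L2, RALGPS2, TSC2 and UAP1 were all lost. The UAP1 versions, which share a skipping junction, were at 99.1, 99.1 and 98.8% and 89.5, 89.2 and 86.96% for 48 nt (adjusted p 0.00212) and at 97.1, 98.1 and 96% and 76.7, 75 and 76.3% for 51 nt (adjusted p 0.00474).

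The other 5 called exons were those of INF2, CCDC50, TMPO, USPL1 and MPZL1, with INF2 and TMPO measured by the same exon between other flanks than in RNA-seq. The 84 nt exon of INF2 was at 11.3, 11.96 and 12.1% in PC3E and 3.55, 5.45 and 2.05% in GS689, and the 528 nt exon of CCDC50 at 98.7, 99.8 and 99.5% and 89.2, 93.97 and 85.1%. The 120 nt exon of TMPO, a lamina-associated polypeptide, was at 90.9, 95.5 and 94.9% and 85.9, 85.1 and 76.2%. The 167 nt exon of USPL1, a SUMO isopeptidase, was at 66.1, 72 and 66.7% and 42.5, 36.7 and 21.4%, and the 103 nt exon of MPZL1, a membrane glycoprotein, at 50, 28.6 and 33.3% and 5.88, 5.88 and 14.7%. Their adjusted p lay between 0.00524 and 0.0312 in the limma-moderated model. All 5 calls were lost when some single library was left out: without GS689 replicate 1 for INF2, CCDC50, MPZL1 and TMPO, and without GS689 replicate 2 or 3 for USPL1. The INF2 call was also lost without GS689 replicate 3, the MPZL1 call without PC3E replicate 1 or 3 or GS689 replicate 2, and the TMPO call without PC3E replicate 3 or GS689 replicate 2 or 3.

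**Figure D5:**
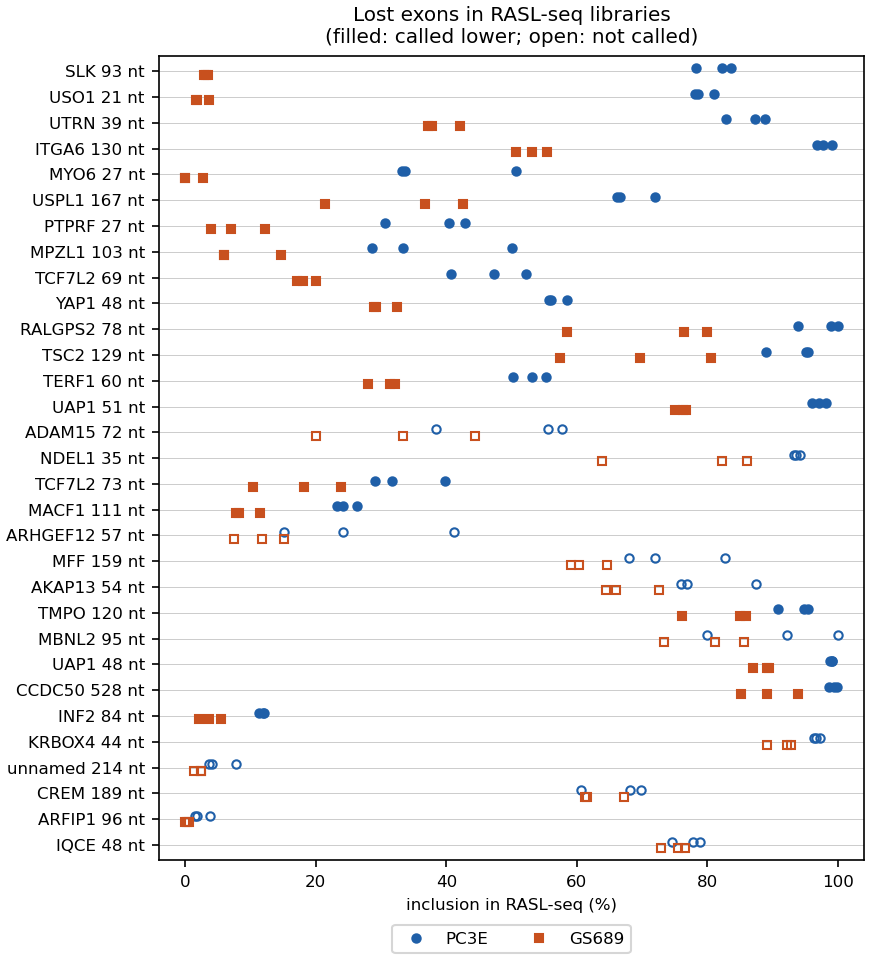
Inclusion in RASL-seq (horizontal, %) of the 31 lost exons that could be tested, blue circles for the 3 PC3E and orange squares for the 3 GS689 libraries, filled where the exon was called lower in GS689 (20 exons). Exons are ordered by the difference, from SLK at -78.2 points to IQCE at -2.15.

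The levels of the 2 assays differed for some exons. Over the 31 exons the mean over the 6 libraries of each assay differed by a median of 9.86 points, and by over 20 points in 12. The CCDC50 exon had a mean of 94.4% in RASL-seq and 13.9% in RNA-seq, and the MPZL1 exon 23.1% and 84.2%. The ARFIP1 exon had a mean of 36.0% in RNA-seq and 1.32% in RASL-seq, where it was at 1.54, 3.81 and 1.83% in PC3E and 0.548, 0 and 0.189% in GS689. Its adjusted p was 0.027, and its difference of -2.15 points was too small for a call. The 102 nt CD44 exon could not be tested, with 93.3, 97.0 and 98.8% in PC3E on 75, 99 and 84 counts and with 1, 0 and 1 counts in GS689.

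Exons near the threshold of the rule differed little from each other in size of difference. Just inside it lay the 78 nt exon of SLAIN2 (-20.02 points), an 844 nt exon of PXN (-20.05) and the 123 nt exon of CYBC1 (-20.1). Just outside lay exons of NSUN5P1 (159 nt, -19.9), ADGRB2 (57 nt, -19.8) and MGST1 (40 nt, -19.8), whose sets did not overlap either.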

How the data were processed

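Per the file headers, the RNA-seq table deposited by the authors holds inclusion and skipping counts of 2 unnamed sets of 3 libraries, with effective lengths, and the RASL-seq table a pair of counts per library and event. Reads were processed with STAR 2.5.2a and kallisto 0.43.0 on hg19, per the submitters' processing notes, which give no roles. Libraries came from Trizol extracts and a stranded total RNA kit, per the labels' protocols.

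Inclusion in RNA-seq was the length-corrected share of inclusion counts. Reads of an alternative exon can count in several events. In RASL-seq the share of the former count of a pair was taken as inclusion (r = 0.876 with RNA-seq inclusion over 1557 events), and empty cells were read as 0. Genes were matched by exon and intron lengths to GENCODE release 29, for 109246 of 114816 RNA-seq and 1934 of 2023 RASL-seq events. No coordinates were converted.

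RASL-seq events with a mean of 10 counts, 1 in each library and 10 of the rarer form were tested with a quasi-binomial logistic model and an F test, with dispersions moderated by limma 3.58.1 in R 4.3.3 and held at 1 or above. The model was tested on simulated data. Skipping counts can be shared between events.

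The members and gene lists were chosen with earlier results of these data known. Named are the 15 largest differences, exons called in RASL-seq, exons nearest the threshold, up to 20 of the switch list, genes with several members, the leading exons of the other lists, and others where stated. Some items that this rule names are not reported here.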

Additional observations from a re-analysis of the deposited data

How the results depend on the processing

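The number of lost exons was 162 with a minimum of 50 counts, 732 with a difference of 10 points and 106 with one of 30 points. It was 207 without length correction, 330 with a minimum of 10 counts, 276 with overlap of the sets allowed, 166 with the median over the exon's events and 282 to 319 with each library left out. Choosing the deepest event of each exon before applying the rule, an alternative added after seeing the data, gave 194. The number of lost exons called lower in GS689 was 20, against 12 with limma on the log2 ratio (pseudocount 0.5), 4 with no filter on low counts, and 13 to 19 with each library left out (13 without GS689 replicate 1). The cause was not tested. The number called higher was 0 under each of the 13 alternatives, and could be otherwise only with a library left out or exons added. The median RASL-seq change of -16.3 points ranged from -20.94 (without GS689 replicate 3) to -16.09 with each library left out. None of 398 values of single exons under the alternatives changed direction. Only the values with a library left out could do so, as the other settings use the same line means. With the replicate number as a block 20 exons were called. Of these the NDEL1 exon (adjusted p 0.034, limma-moderated model) had not been called without the block, while the 73 nt TCF7L2 exon no longer was. The block leaves the change of each exon as it was. Libraries with the same number did not deviate together (correlations of 0.037, 0.0038 and 0.034), which does not settle whether the numbers pair the libraries. Low counts limit 87 of the lost exons, and RASL-seq could test 31.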
